A study of Homo sapiens with 30 samples.

Results

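The genes that make cholesterol and fatty acids were followed in G401, a malignant rhabdoid tumour line that lacks SNF5 (SMARCB1), a core subunit of the SWI/SNF chromatin remodelling complex. The set held 30 genes, chosen by their place in these pathways under a rule that uses no measured value, though with earlier results of these data known, and 29 of them were listed among the 20367 gene symbols of the PRO-Seq table. SC4MOL was the exception. Its newer symbol, MSMO1, was in the table, and its values are given beside the set. G401 cells had been transduced with lentivirus carrying a TET-inducible EGFP, OmoMYC or SNF5 construct and selected with G418, and all groups received doxycycline at 1 µg/ml for 24 h, including the EGFP control. OmoMYC is a dominant-negative MYC fragment that keeps MYC from binding its targets, and SNF5 restores the missing subunit. MYC ChIP-Seq was done in 2 samples per construct, and ATAC-Seq and PRO-Seq in 3 samples per construct. The comparisons ask how the synthesis genes respond to SNF5 and to MYC inhibition in the same cells, and whether MYC and open chromatin are found at their starts.

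Cholesterol is built from acetyl-CoA through the mevalonate arm, which ends in farnesyl diphosphate, and then through the sterol arm, which closes and trims the ring. Fatty acids are built from the same acetyl-CoA by acetyl-CoA carboxylase and fatty acid synthase, and are then elongated and desaturated. Both arms are driven by the SREBP transcription factors, encoded by SREBF1 and SREBF2, which are carried out of the endoplasmic reticulum by SCAP when sterols are low and held back by INSIG1 when sterols are high. SREBPs bind sterol regulatory elements, usually together with NF-Y at a CCAAT box and Sp1 at a GC box. MYC binds the E-box CACGTG and is known in tumour cells for raising lipid synthesis.

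Promoter sequences are shown for the genes on which the results below turn: the pair that rose with SNF5 (HMGCS1 and SC5DL, now SC5D), MVD, which fell with SNF5, the sensor SCAP and the desaturase SCD, which carried MYC peaks, and the regulator SREBF2. Each is the 250 bases before a RefSeq start in GRCh38.p14, read along the gene's strand, and capitals mark CACGTG, TCACNCCAC (the sterol regulatory element core), CCAAT and GGGCGG on either strand. HMGCS1 and SC5DL have 2 such starts each, and for them the window with the most motif sites is shown.
HMGCS1, chr5:43313413-43313662 (minus strand): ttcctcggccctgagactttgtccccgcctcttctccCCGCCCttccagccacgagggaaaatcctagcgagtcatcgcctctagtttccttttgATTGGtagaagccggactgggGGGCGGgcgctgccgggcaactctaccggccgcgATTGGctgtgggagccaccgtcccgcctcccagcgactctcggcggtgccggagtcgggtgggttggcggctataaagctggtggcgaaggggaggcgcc
SC5DL, chr11:121292521-121292770 (plus strand): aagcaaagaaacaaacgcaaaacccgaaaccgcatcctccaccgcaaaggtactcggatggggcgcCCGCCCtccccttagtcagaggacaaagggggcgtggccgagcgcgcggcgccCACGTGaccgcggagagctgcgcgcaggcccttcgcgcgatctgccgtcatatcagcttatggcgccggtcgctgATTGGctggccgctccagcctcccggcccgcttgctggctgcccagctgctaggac
MVD, chr16:88663092-88663341 (minus strand): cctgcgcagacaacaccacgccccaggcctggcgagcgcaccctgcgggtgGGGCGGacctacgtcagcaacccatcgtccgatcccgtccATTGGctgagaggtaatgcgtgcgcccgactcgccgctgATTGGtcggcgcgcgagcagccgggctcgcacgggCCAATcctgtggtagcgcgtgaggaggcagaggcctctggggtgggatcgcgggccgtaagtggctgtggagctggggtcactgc
SCAP, chr3:47475942-47476191 (minus strand): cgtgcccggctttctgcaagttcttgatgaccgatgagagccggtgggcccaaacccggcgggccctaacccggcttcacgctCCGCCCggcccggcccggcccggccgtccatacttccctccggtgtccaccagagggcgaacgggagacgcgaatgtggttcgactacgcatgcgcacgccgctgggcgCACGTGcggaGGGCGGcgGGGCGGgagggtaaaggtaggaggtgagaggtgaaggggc
SREBF2, chr22:41832855-41833104 (plus strand): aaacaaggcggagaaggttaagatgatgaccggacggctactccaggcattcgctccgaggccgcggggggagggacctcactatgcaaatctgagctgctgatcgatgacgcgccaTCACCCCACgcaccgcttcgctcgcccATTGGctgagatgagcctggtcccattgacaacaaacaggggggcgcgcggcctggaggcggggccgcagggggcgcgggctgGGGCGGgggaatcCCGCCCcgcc
SCD, chr10:100346983-100347232 (plus strand): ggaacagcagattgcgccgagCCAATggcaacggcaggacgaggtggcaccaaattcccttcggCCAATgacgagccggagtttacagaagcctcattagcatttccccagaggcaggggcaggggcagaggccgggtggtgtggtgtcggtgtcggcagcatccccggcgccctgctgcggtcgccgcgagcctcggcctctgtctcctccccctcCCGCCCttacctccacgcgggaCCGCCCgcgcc
MVD held 3 CCAAT boxes in these bases, HMGCS1 and SCD held 2 each, and SCAP held none. The HMGCS1 window that is not shown, chr5:43313132-43313431, held 0 CCAAT boxes and 2 GGGCGG. An E-box lay 131 bases before the start of SC5DL and 58 bases before that of SCAP. SREBF2 held the only TCACNCCAC, 133 bases before its start. Over the full RefSeq windows, which run to 50 bases past the start, 25 members had an entry. GGGCGG was found in 24 of these 25 (96.0%, against 48.3% of 27305 genes with a window and 45.0% of 35116 windows). CCAAT was found in 19 (76.0%, against 39.7% of genes and 34.6% of windows), CACGTG in 4, namely INSIG1, LSS, SC5DL and SCAP (16.0%, against 8.77% and 7.26%), and TCACNCCAC in 1 (4.0%, against 1.39% and 1.13%). None of the 4 motifs contains another. These shares are descriptions of the letters and were not tested. The RefSeq windows of FADS2 lie beside the FADS1 start and not at the start of its transcript counted below.

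Depth and identity were checked first. Gene body totals ran from 28388012 to 46859674 reads per PRO-Seq sample, and promoter-proximal totals from 517824 to 3381190, with the 3 samples numbered replicate 1 the shallowest (517824 to 671718). SMARCB1 had 4, 1 and 6 gene body reads in the EGFP samples, 2, 5 and 4 in the OmoMYC samples and 2870, 4467 and 3440 in the SNF5 samples, as the labels say. Markers of other cells stayed low, with EPCAM between 14.8 and 47.7 scaled reads, PTPRC at 0 or 1 read, and CD3E at 0 to 11.6 scaled reads, highest in OmoMYC replicate 2. PECAM1 is listed at 0 in all 9 samples, but given the zeros described below it cannot serve as a check. Of the 29 listed genes, 26 had a mean of at least 10 gene body reads and were tested. NSDHL and EBP, both on chromosome X, are listed at 0 in every sample, and ACLY, the citrate lyase that supplies acetyl-CoA, has 1 read in all. Genes at 0 are common in the table (1548 of 20367, 7.6%), above all on chromosome X (290 of 816, 35.5%), and ACLY lies in a run of 15 neighbouring genes with at most 2 reads each. All 3 nevertheless carried ATAC peaks at their starts in all 9 samples, so the zeros are reported as listed and not as absent transcription.

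In EGFP cells the synthesis genes were mostly well transcribed. Per kb of gene body, the 26 tested genes ranged from 780 scaled reads for SCD, the stearoyl-CoA desaturase, to 14.2 for HSD17B7, with a median of 110 against 46.7 for the 15060 genes tested. FADS1 stood at 286, FDPS at 225 and SREBF1 at 192 scaled reads per kb, whereas SREBF2 stood at 87.0 and SCAP at 56.9. In all, 24 of the 26 lay above the median of tested genes and 14 above the 75th percentile. Scaled reads are raw reads divided by the effective size of their library, and the polymerases they count are those engaged at 24 h of induction.

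SNF5 lowered more of the synthesis genes than it raised. Against EGFP, 11 of 26 changed at an adjusted p under 0.05 (edgeR's quasi-likelihood test with the replicate number as a term), compared with 34.4% of all genes tested. Of these 11, 9 fell (17.1% of all genes did) and 2 rose (17.3%). The falls were of 14.8 to 28.2%, and the median log2 fold change over the 26 was -0.07 against -0.03 over all genes. All 9 were lower in each of 3 pairs, as were 11 of the 26 in all (42.3%, against 32.1% of all genes). The genes that fell came from every arm, whereas the rises were limited among these 26 to HMGCS1 and SC5DL. The remaining 15 ran from -0.21 (PMVK) to 0.22 (ELOVL6) on the log2 scale and did not pass.

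**Figure D1:**
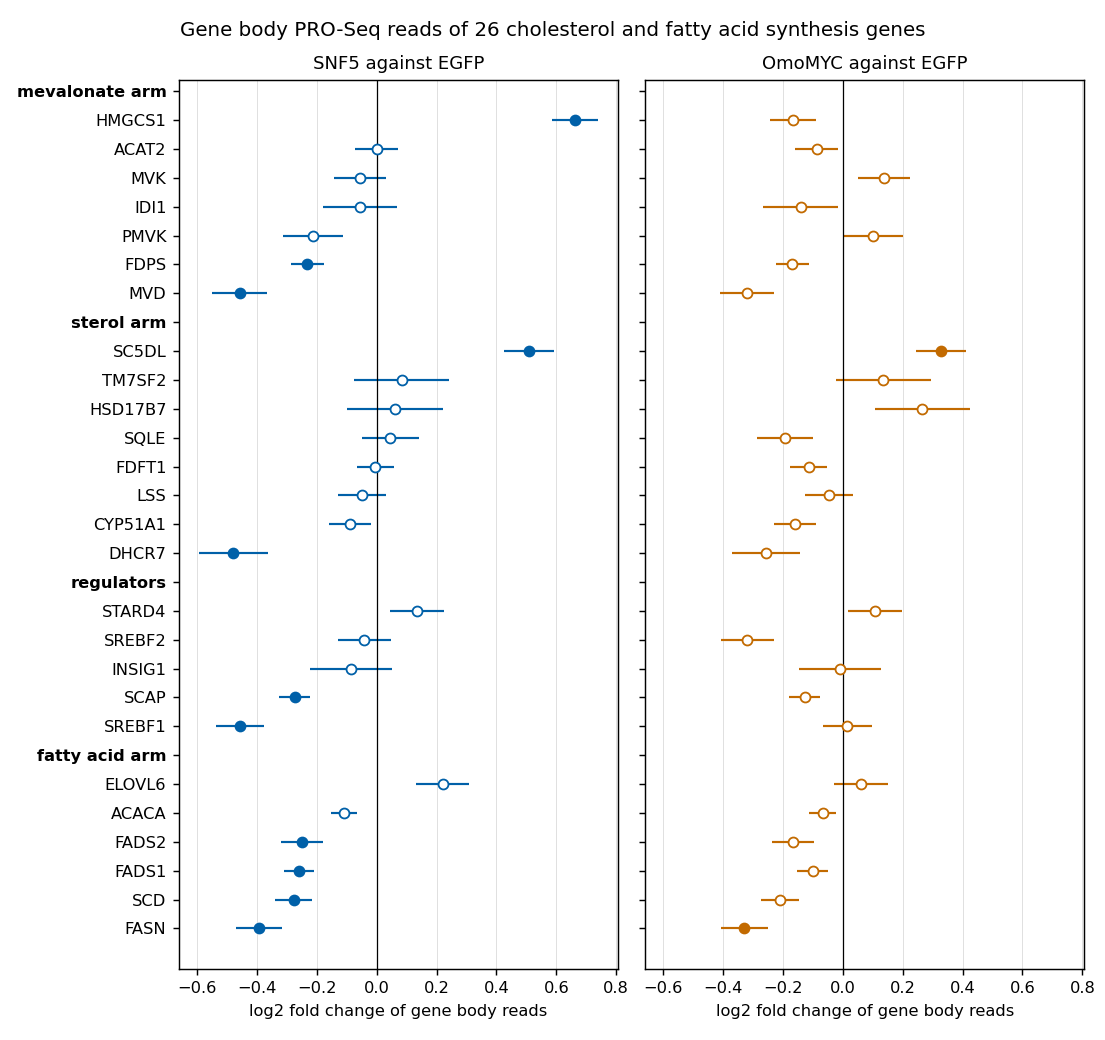
Log2 fold change of gene body reads (x axis) for 26 synthesis genes grouped by role (y axis), SNF5 against EGFP on the left and OmoMYC against EGFP on the right. Points are estimates, bars are 1 SE, and filled points passed an adjusted p under 0.05. With SNF5, 9 filled points lie left of 0 and 2 right of it. With OmoMYC, 1 lies on each side.

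In the mevalonate arm, HMGCS1 stood apart. It encodes the cytosolic HMG-CoA synthase (chr5:43289493-43313595 in hg19, minus strand). Its scaled gene body reads were 2768, 2617 and 2977 in the EGFP samples, 2562, 2183 and 2718 with OmoMYC, and 4114, 3810.5 and 5429.6 with SNF5. Every SNF5 sample lay above every other sample, and the SNF5 group rose by 58.4% over EGFP (log2 0.66, SE 0.08, adjusted p = 0.00042, higher in 3 of 3 pairs). MVD, the mevalonate diphosphate decarboxylase, moved the other way, with 647, 597 and 642 scaled reads with EGFP against 474, 421 and 478 with SNF5. Those ranges did not overlap (log2 -0.46, SE 0.09, adjusted p = 0.0056). FDPS, which makes farnesyl diphosphate, had 2606, 1753 and 3003 scaled reads with EGFP and 2133, 1493 and 2658 with SNF5. Its groups overlapped, but it was lower in each of the 3 pairs (log2 -0.23, SE 0.06, adjusted p = 0.012). ACAT2, MVK, PMVK and IDI1 did not pass, with log2 fold changes of -0.00, -0.06, -0.21 and -0.06. An antisense gene overlaps 207 bases of FDPS, and another, IDI2-AS1, overlaps 4178 bases of IDI1. The study's methods name the coding strand for the promoter-proximal window but give no strand for gene body counts.

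In the sterol arm, SC5DL and DHCR7, which encode neighbouring steps near the end of cholesterol synthesis, changed in opposite directions. SC5DL, the sterol-C5-desaturase (chr11:121163388-121184119, plus strand), had 1046, 896 and 1149.8 scaled reads with EGFP and 1470.0, 1282 and 1649 with SNF5. The groups did not overlap, and the rise was 42.3% (log2 0.51, SE 0.08, adjusted p = 0.0024). DHCR7, the 7-dehydrocholesterol reductase that takes the product of SC5DL to cholesterol (chr11:71145457-71159477, minus strand), had 1329.8, 1534 and 1370.3 scaled reads with EGFP and 903, 889.9 and 1264 with SNF5. Again the groups did not overlap, and the fall was 28.2% (log2 -0.48, SE 0.11, adjusted p = 0.013). The other 6 tested sterol genes lay between -0.09 (CYP51A1) and 0.08 (TM7SF2) on the log2 scale and did not pass. HSD17B7 has a near-identical pseudogene copy, so its reads are uncertain. MSMO1, listed under its newer symbol, had a log2 fold change of 0.02 (SE 0.14, adjusted p = 0.94).

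Among the regulators, SREBF1 and SCAP fell while SREBF2 and INSIG1 did not pass. SREBF1, whose SREBP-1 products drive mostly fatty acid genes, had 4965, 3605 and 5654 scaled reads with EGFP and 3661, 2460.2 and 4309 with SNF5. Replicate 2 was the lowest of each group, so the groups overlapped, but all 3 pairs fell (log2 -0.46, SE 0.08, adjusted p = 0.0034). SCAP had 3437, 2802 and 4218 scaled reads with EGFP and 2889, 2372 and 3353 with SNF5, again with overlapping groups and a fall in every pair (log2 -0.27, SE 0.05, adjusted p = 0.0048). SREBF2, whose product drives mostly cholesterol genes, had 7179, 5045 and 6636 scaled reads with EGFP and 6159, 4555 and 7791 with SNF5, lower in 2 of 3 pairs (log2 -0.04, SE 0.09, adjusted p = 0.75). INSIG1 had 1395, 1357 and 1284 with EGFP and 1106, 1062 and 1714 with SNF5, likewise lower in 2 of 3 (log2 -0.09, SE 0.14, adjusted p = 0.66). STARD4, a sterol carrier, was at 0.14 (SE 0.09, adjusted p = 0.27). RAI1 overlaps the last 103 bases of SREBF1 on the other strand.

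In the fatty acid arm 4 of 6 tested genes fell with SNF5, compared with 17.1% of all genes tested. FASN, the fatty acid synthase, had 2779, 1453 and 3256 scaled reads with EGFP and 1856, 1146 and 2735 with SNF5, a fall of 23.9% over pairs that differed more between replicate numbers than between constructs (log2 -0.39, SE 0.08, adjusted p = 0.0054). SCD had 12463, 12321 and 14573 scaled reads with EGFP and 10039.7, 9371 and 13356 with SNF5, with replicate 3 the highest of each group (log2 -0.28, SE 0.06, adjusted p = 0.0095). FADS1, the delta-5 desaturase, had 4553, 3946 and 5616 against 3831, 3254 and 4722 (log2 -0.26, SE 0.05, adjusted p = 0.0051). FADS2, the delta-6 desaturase, is transcribed away from FADS1 from a start 11184 bases off, and had 4408, 3209 and 5201 scaled reads against 3469.9, 2506 and 5014 (log2 -0.25, SE 0.07, adjusted p = 0.023). For these 4 genes the groups overlapped and each of the 3 pairs was lower with SNF5. ACACA, the acetyl-CoA carboxylase, was at -0.11 (SE 0.04, adjusted p = 0.085) and the elongase ELOVL6 at 0.22 (SE 0.09, adjusted p = 0.086), and neither passed. C17orf78 overlaps 16678 bases of ACACA on the other strand.

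**Figure D2:**
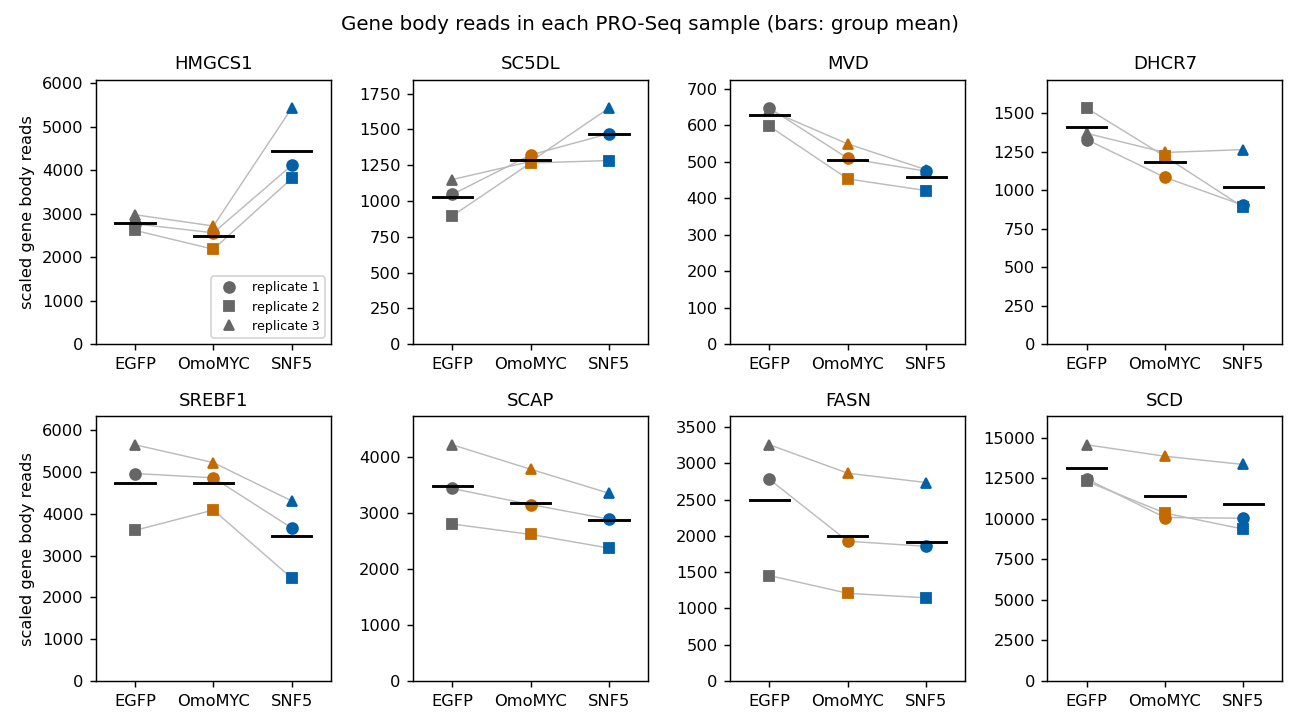
Scaled gene body reads (y axis, from 0) in each PRO-Seq sample by construct (x axis) for 8 of the synthesis genes. Marker shape gives the replicate number, grey lines join samples of 1 number and black bars are group means. HMGCS1 is highest in the 3 SNF5 samples, and for SREBF1, SCAP and FASN each SNF5 sample lies below the EGFP sample of its number while the numbers stay apart.

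These calls rest on the pairing by replicate number. Samples with the same number deviated together, with correlations of 0.752 to 0.881 between their deviations from the group means. Without the replicate term no synthesis gene passed in any gene body comparison, the closest being HMGCS1 with SNF5 at an adjusted p of 0.080 against EGFP. The number of genes called in the whole table fell from 5181 to 223 for SNF5 against EGFP. It fell from 1279 to 1 for OmoMYC against EGFP and from 2858 to 75 for SNF5 against OmoMYC. Leaving out libraries in turn left 7 to 13 synthesis genes called. DHCR7, FDPS, FADS2 and SCD dropped out without EGFP replicate 1, EGFP replicate 2 or SNF5 replicate 2, the count without any of these 3 being 7. DHCR7, FDPS and FADS2 also dropped out without SNF5 replicate 1, where it was 8. HMGCS1, SC5DL, MVD, SREBF1, SCAP, FASN and FADS1 passed whichever library was left out.

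OmoMYC moved few of the synthesis genes past the threshold. Against EGFP, 2 of 26 passed, compared with 8.49% of all genes. Of all genes 4.52% fell and 3.98% rose. FASN fell, with 1926, 1208 and 2864 scaled reads in the OmoMYC samples (log2 -0.33, SE 0.08, adjusted p = 0.038), and SC5DL rose, with 1322, 1265 and 1276, all above the highest EGFP sample (log2 0.33, SE 0.08, adjusted p = 0.047). Neither call held without EGFP replicate 1, EGFP replicate 2, OmoMYC replicate 1, OmoMYC replicate 2, SNF5 replicate 1 or SNF5 replicate 2, each of which left 0 genes called, whereas 8 were called without EGFP replicate 3 and 9 without SNF5 replicate 3. FASN included, 14 of 26 genes were lower in all 3 pairs (53.8%, against 27.9% of all genes), and the median log2 fold change was -0.11 against -0.00 over all genes. SREBF2 had 5343, 4252 and 5459 scaled reads with OmoMYC (log2 -0.32, SE 0.09, adjusted p = 0.057) and MVD had 509.5, 453 and 549 (log2 -0.32, SE 0.09, adjusted p = 0.059). DHCR7 was at 1084, 1221 and 1246, SCAP at 3151, 2617 and 3781, SCD at 10084, 10356 and 13865, and FADS1 at 4135, 3678 and 5368 scaled reads, with adjusted p-values of 0.17, 0.15, 0.067 and 0.22. SREBF1 was at 4863, 4092 and 5227, close to EGFP (log2 0.015, SE 0.08, adjusted p = 0.92), and INSIG1 at 1216, 1282 and 1551 (log2 -0.01, SE 0.14, adjusted p = 0.97).

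The constructs were also compared directly. Between SNF5 and OmoMYC, 2 of 26 genes differed, compared with 19% of all genes (11.4% higher with SNF5, 7.56% lower). HMGCS1 was 77.9% higher with SNF5 (log2 0.83, SE 0.08, adjusted p = 0.00022), and SREBF1 was lower by 0.47 on the log2 scale (SE 0.08, adjusted p = 0.0045). Both passed whichever library was left out and neither without the replicate term (adjusted p = 0.071 and 0.65). For SREBF2 the log2 difference was 0.28 (SE 0.09, adjusted p = 0.059) and for PMVK it was -0.32 (SE 0.10, adjusted p = 0.058). The other falls with SNF5 did not differ from OmoMYC past the threshold, with log2 differences of -0.22 for DHCR7 (SE 0.12), -0.16 for FADS1 (SE 0.05) and -0.07 for FASN (SE 0.08).

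Polymerase near the start was read from the 50-base promoter-proximal window. With edgeR, 0 of 26 genes passed for SNF5 against EGFP, for OmoMYC against EGFP or for SNF5 against OmoMYC, compared with 4.3%, 1.75% and 0.836% of all genes. At an unadjusted p under 0.05 the counts were 3, 3 and 0 (20.2%, 15.4% and 14.1% of all genes), and DESeq2 also called 0 in each. Reads in this window varied between genes, with HMGCS1 at 35 to 105, SCAP at 14 to 104 and SREBF1 at 66 to 396 per sample. HMGCS1 did not pass there, with a log2 fold change of 0.10 with SNF5 (SE 0.24, adjusted p = 0.85).

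The pausing index, reads per base in the window over reads per base in the gene body, was called for few of the synthesis genes. It passed in 1 of 26 genes with SNF5 and 1 of 26 with OmoMYC, MVD in each case, which is near the 3.66% and 2.26% of all genes, and in 0 of 26 between SNF5 and OmoMYC (1.23% of all genes, 3 of the 26 at an unadjusted p under 0.05, as 13.8% of all genes, and 0 by DESeq2). The MVD index was 24.2, 129 and 64.0 in the EGFP samples, 44.7, 369.7 and 87.6 with OmoMYC and 20.5, 342 and 154 with SNF5. It was higher in 3 of 3 pairs with OmoMYC (log2 0.96, SE 0.26, adjusted p = 0.031) and in 2 of 3 with SNF5, replicate 1 being slightly lower (log2 0.91, SE 0.26, adjusted p = 0.033). Replicate 1 is the shallow sample of each group, with 51 to 102 reads in the MVD window. The SNF5 call was lost without EGFP replicate 2 (adjusted p = 0.49), EGFP replicate 3 (0.064), SNF5 replicate 2 (0.31) or SNF5 replicate 3 (0.36), and the OmoMYC call without EGFP replicate 2 (0.66), OmoMYC replicate 1 (0.27) or OmoMYC replicate 2 (0.44). Neither call held without the replicate term, and DESeq2 gave 0.25 for SNF5 and no adjusted p for OmoMYC. Between SNF5 and OmoMYC the HMGCS1 index was lower with SNF5 without passing (log2 -0.84, SE 0.25, adjusted p = 0.081). All 7 tested mevalonate genes, MVD included, lay below 0 in that comparison.

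**Figure D3:**
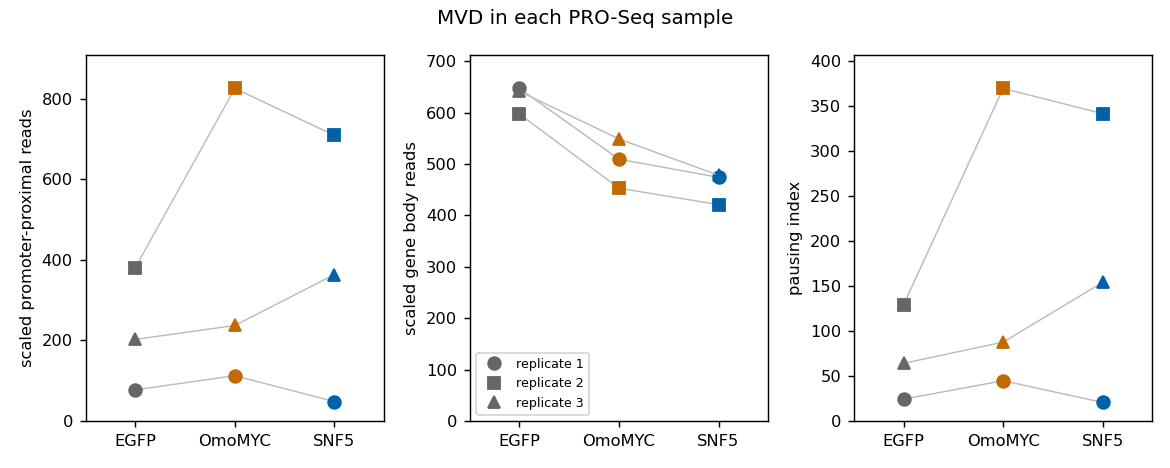
MVD in each PRO-Seq sample by construct (x axis): scaled promoter-proximal reads, scaled gene body reads and pausing index (y axes, from 0), with grey lines joining samples of 1 replicate number. The gene body reads of all 6 OmoMYC and SNF5 samples lie below the 3 EGFP samples, and the index of replicate 2 rises from 129 to 369.7 and 342.

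MYC peaks were listed at the starts of many synthesis genes in EGFP cells. A peak summit lay within 1 kb of the start in 5 of 29 genes in EGFP replicate 1 and in 19 of 29 in EGFP replicate 2, a sample whose list holds 5396 peaks against 940. The lists of the SNF5 samples hold 137 and 27 peaks and placed none at these genes, but they placed one at only 0.614% and 0.0786% of all genes, so the absence is not particular to the synthesis genes. Those of the OmoMYC samples hold 1 line each, taken here as a placeholder and read as 0 peaks, whereas the study's reporting summary counts 1 peak in each. With 2 samples a group the exact two-sided permutation test gave p = 0.333 for each construct, the smallest it allows. For OmoMYC this outcome was fixed by lists read as empty and says nothing about these genes. The 5 genes with a peak in both EGFP samples (17.2%, against 4.31% of all genes) were DHCR7, SCAP, FASN, SCD and FADS1, and 19 had a peak in at least 1 (65.5%, against 23.2%). All genes here include those without reads. Of the 15060 genes tested in gene bodies, 832 had a peak in both samples and 4516 in at least 1, against 5 and 18 of the 26 tested members. Whether their higher transcription plays a part was not tested. Peak enrichment over background ran from 3.52-fold to 13.8-fold.

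FASN had the highest enrichment among these genes, 13.8-fold in EGFP replicate 2 with the summit 387 bases before its start, and 4.12-fold in replicate 1 with the summit 948 bases before it. DHCR7 had peaks of 5.6-fold and 5.76-fold at 63 and 248 bases before the start of its counted transcript, in an intron of longer annotated transcripts. The SCAP peaks, 4.65-fold and 6.42-fold, lay 109 and 50 bases inside the gene, in an exon, and those of FADS1, 5.94-fold and 5.26-fold, lay 4 and 194 bases inside it, also in an exon. For SCD the peaks did not overlap each other, being 438 bases before the start at 5.15-fold and 163 bases past it at 3.52-fold, both ahead of the first GENCODE exon. The 101 bases around a summit are shown for the 3 of these 10 peaks that held the E-box, from GRCh37 along the gene's strand, with capitals marking CACGTG.
DHCR7, EGFP replicate 2, chr11:71159675-71159775 (minus strand): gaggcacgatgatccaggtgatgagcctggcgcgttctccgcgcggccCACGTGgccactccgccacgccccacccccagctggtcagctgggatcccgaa
FASN, EGFP replicate 1, chr17:80057004-80057104 (minus strand): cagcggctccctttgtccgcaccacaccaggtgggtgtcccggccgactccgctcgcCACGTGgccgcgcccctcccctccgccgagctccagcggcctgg
FASN, EGFP replicate 2, chr17:80056443-80056543 (minus strand): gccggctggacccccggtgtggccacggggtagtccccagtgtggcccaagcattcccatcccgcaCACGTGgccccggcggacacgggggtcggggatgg
An E-box lay within 50 bases of the summit in 1 of 5 member peaks in replicate 1 (20%, against 37.3% of all 940 peaks) and in 3 of 19 in replicate 2, the others being DHCR7 and LSS beside FASN (15.8%, against 17.9% of all 5396).

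The genes that fell with SNF5 were among those with MYC peaks. All 9 were in the group of 18 tested genes that carried a peak in EGFP cells, of which 13 had it in replicate 2 alone, and HMGCS1 and SC5DL, which rose, were among the 8 without. Each of the 5 genes with a peak in both samples fell. In the table as a whole, 42.5% of the 832 tested genes with a peak in both EGFP samples fell with SNF5, compared with 1356 of 4516 with a peak in either sample and 1216 of 10544 (11.5%) with none. The shares that rose were 2.64%, 6.16% and 22.1%. The median log2 fold change with SNF5 was -0.28 over the 5 synthesis genes with 2 peaks, -0.17 over the 18 with at least 1 and 0.03 over the 8 with none. Over all genes the medians with SNF5 ran the same way, at -0.20, -0.14 and 0.04. With OmoMYC the medians were -0.21, -0.12 and 0.01 for the synthesis genes and -0.15, -0.09 and 0.05 for all genes. These counts were not tested, and peak lists carry no read counts.

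**Figure D4:**
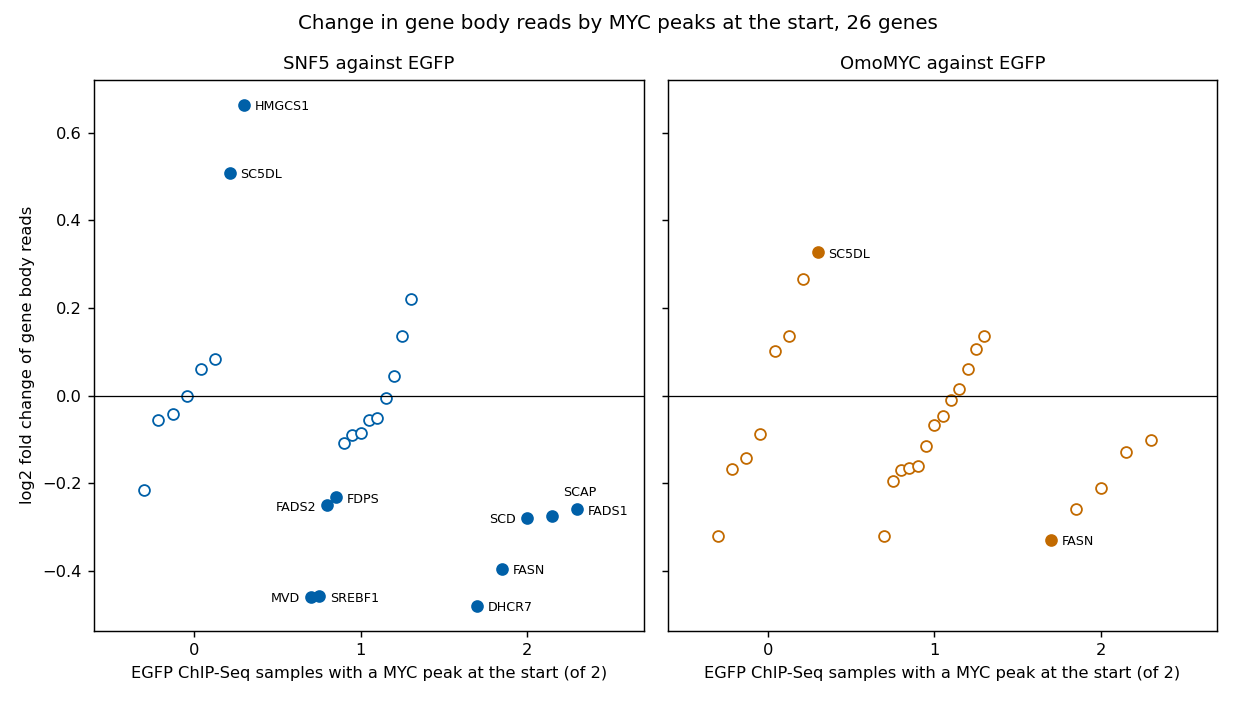
Log2 fold change of gene body reads (y axis) for 26 synthesis genes by the number of EGFP ChIP-Seq samples with a MYC peak at the start (x axis, 0, 1 or 2), for SNF5 on the left and OmoMYC on the right. Filled and named points passed an adjusted p under 0.05, and sideways spread within a number is for display. With SNF5 the 9 filled points below 0 all sit at 1 or 2, and the 2 above 0 sit at 0.

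Open chromatin was found within 1 kb of a RefSeq start of all 29 listed genes in at least 1 ATAC-Seq sample. Peaks in hg38 lay within 1 kb of a start of 23, 25 and 20 of them in the EGFP samples, 19, 28 and 22 in the OmoMYC samples and 29, 29 and 26 in the SNF5 samples. The SNF5 samples were above all EGFP samples (exact two-sided permutation p = 0.1, the smallest for 3 against 3), and OmoMYC overlapped EGFP (p = 1). The SNF5 lists are also longer, with 22722 to 33596 peaks against 9208 to 17817 for EGFP. When the 7260 strongest peaks of each sample were used, the counts became 18, 20 and 19 for EGFP, 19, 16 and 16 for OmoMYC and 18, 20 and 18 for SNF5, with no excess for SNF5 (exact permutation p = 1). In all, 18 of 29 genes had a peak in every sample (62.1%, against 25.6% of all genes, those without reads included).

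**Figure D5:**
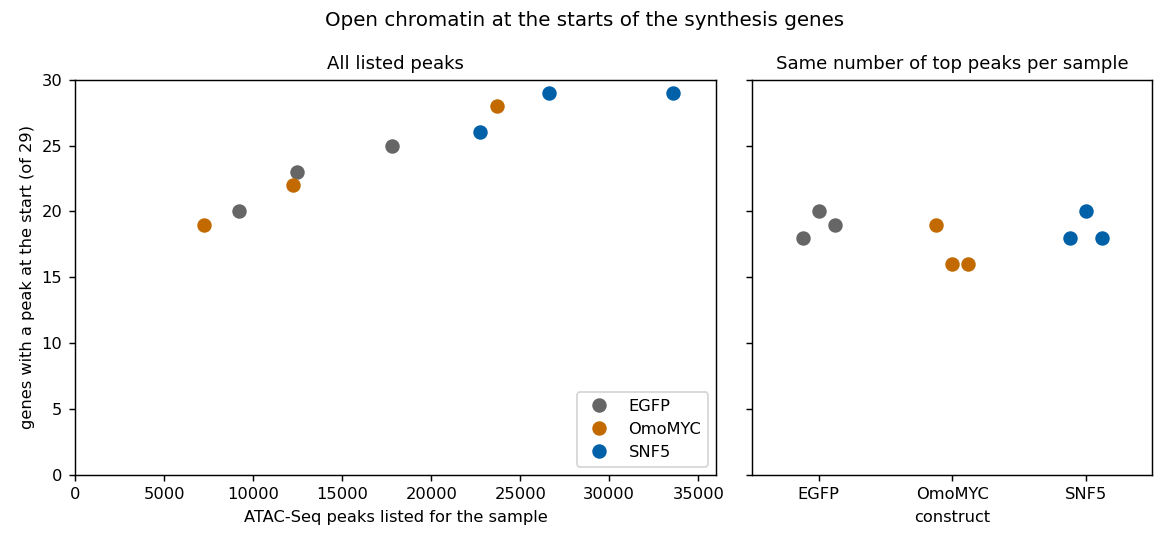
Number of the 29 synthesis genes with an ATAC-Seq peak at the start (y axis) against the number of peaks listed for the sample (x axis, left), and the same number using 7260 peaks per sample by construct (right). Each point is a sample. On the left the sample with the shortest list of each construct has the lowest count, and on the right SNF5 lies at 18 to 20, as EGFP does.

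FDFT1, TM7SF2 and SREBF1 had no ATAC peak in any EGFP sample. With SNF5, SREBF1 had one in 3 of 3 samples and FDFT1 and TM7SF2 in 2 of 3, and all of these had one in OmoMYC replicate 2, the longest OmoMYC list (23684 peaks). For FDFT1 only the upstream end of the RefSeq gene was searched, so peaks at other starts would be missed. The FADS2 starts searched, chr11:61816203 and chr11:61816404 in hg38, lie beside that of FADS1 (61817003). The start of the counted FADS2 transcript, 11184 bases from that of FADS1, was not searched, so the FADS2 peaks describe the FADS1 region. Of all genes, 41.0, 47.4 and 33.9% had a peak at the start with EGFP and 54.2, 51.7 and 47.7% with SNF5. The share of all genes that changed as these members did was not counted. HMGCS1, which rose with SNF5, was already open in EGFP cells, with enrichment of 9.12, 11.9 and 10.9-fold against 10.6, 12.6 and 10.9-fold with SNF5. SC5DL was at 8.29, 9.36 and 9.88-fold with EGFP and 11, 12 and 11.8-fold with SNF5, groups that did not overlap, in lists where the median over the 18 genes open in all samples was 6.26 to 7.13-fold with EGFP and 7.62 to 8.03-fold with SNF5. Whether list length plays a part in these values was not tested.

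Other genes of the same pathways were read from lists written down beside the set. Of 13 tested genes of cholesterol and isoprenoid synthesis outside it, 2 fell with SNF5 and none rose, the falls being close to the 17.1% of all genes that fell. These were ACAT1, the mitochondrial acetoacetyl-CoA thiolase (log2 -0.22, SE 0.07, adjusted p = 0.040), and TMEM147, a protein of the endoplasmic reticulum (log2 -0.52, SE 0.16, adjusted p = 0.033). The median over the 13 was 0.01 against -0.03 over all genes.

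Of 21 tested genes of sterol sensing, transport and esterification, 2 rose and 4 fell with SNF5, near or below the shares over all genes (17.3% and 17.1%). ABCG1, a sterol exporter, rose by 2.19 on the log2 scale (SE 0.26, adjusted p = 0.00053) and MYLIP, a ligase that degrades lipoprotein receptors, by 0.72 (SE 0.21, adjusted p = 0.026). Both are known targets of the liver X receptors. NR1H2 and NR1H3, which encode those receptors, fell by 0.49 (adjusted p = 0.013) and 0.21 (adjusted p = 0.031), as did the sterol-binding protein OSBP (0.30, adjusted p = 0.011) and ERLIN1 (0.21, adjusted p = 0.047).

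Of 27 tested genes of fatty acid synthesis, elongation and activation outside the set, 7 rose and 3 fell with SNF5, where 17.3% of all genes rose and 17.1% fell. The 7 were the elongases ELOVL2 (log2 0.92, SE 0.10), ELOVL7 (0.60, SE 0.10) and ELOVL5 (0.16, SE 0.05), the acyl-CoA synthetases ACSL5 (2.55, SE 0.32), ACSL4 (1.05, SE 0.26) and ACSL1 (0.82, SE 0.11), and SCD5 (0.72, SE 0.08), with adjusted p-values from 0.00038 to 0.046. The 3 were PTPLAD1 (-0.24, SE 0.05) and TECR (-0.31, SE 0.08), which act in the elongation cycle, and the mitochondrial reductase MECR (-0.28, SE 0.06). SCD5 thus rose in the cells in which SCD fell. With OmoMYC, ACSL1 was the one gene of these lists to pass, and it rose (log2 0.52, SE 0.12, adjusted p = 0.033). The listed genes were not followed under other settings. Over all genes, OmoMYC calls went from 1279 to 9 without EGFP replicate 1 and 6 without EGFP replicate 2. They rose to 3302 without EGFP replicate 3.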

How the data were processed

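Deposited PRO-Seq gene body and promoter-proximal counts had been made by the authors from reads trimmed with cutadapt, reverse complemented, aligned to hg19 with Bowtie2, cleared of rRNA loci and of mapping quality under 10, and counted per RefSeq transcript with NRSA; the deposited gene body signal (counts per base) served only for lengths. MYC peaks (hg19) and ATAC peaks (hg38) were called per sample by the authors with MACS2 at q-values of 0.01 and 0.001, and the deposited peak lists give fold enrichment and −log10 q. No column of per-sample values was left unmapped, and IgG samples were not analysed here.

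For each symbol the transcript with the most reads was kept (20582 transcripts, 20367 symbols). Genes with a mean of at least 10 counts were fitted with edgeR 4.0.16 (R 4.3.3), all 9 samples together, with construct and replicate number as terms, since the study's methods account for a batch effect. Library sizes in both regions were the gene body totals scaled by RLE factors, and p-values were adjusted by Benjamini-Hochberg at 0.05 over all genes (15060 gene body, 11241 promoter-proximal, 11171 pausing index). The pausing index was tested as the region by construct interaction over 18 columns. The block followed a check of pairing: same-numbered samples correlated at 0.752 to 0.881 in gene body deviations and 0.689 to 0.849 in promoter-proximal ones, other pairs at -0.667 to 0.124. Replicates are separate samples by their labels. The p-values measure the spread left after differences between replicate numbers were taken out by the replicate term, not the full spread between samples. Scripts were tested on simulated data.

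Peaks were placed at the start of the kept transcript (MYC) or at RefSeq GRCh38.p14 starts (ATAC), with the summit within 1000 bases. ACAT2, FDFT1, SQLE and FASN had no promoter entry, so the upstream end of the RefSeq gene served as their ATAC start. No coordinates were converted. Counts of members were compared by exact permutation tests that enumerated every division of the samples and doubled the smaller tail (Python 3.11.15). The members and lists were chosen with earlier results of these data known. Any member could be named, values per sample being given for members called against EGFP, for those with MYC peaks in both EGFP samples and for SREBF1, SREBF2, SCAP and INSIG1; of the other lists, members called were named. Alternatives were no replicate block, TMM factors, DESeq2 1.42.0, no count filter, only the samples compared, offsets from promoter-proximal counts, each library left out, and for peaks a q-value of 0.00001, 5000 bases, any annotated start and an equal number of peaks.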

Additional observations from a re-analysis of the deposited data

How the results depend on the processing

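Without the replicate block, 0 synthesis genes passed in gene body reads for SNF5 against EGFP, OmoMYC against EGFP and SNF5 against OmoMYC, and 0 in the pausing index of either construct against EGFP. DESeq2 and a fit of only the 6 samples compared each called 4 in gene body reads for OmoMYC, and 0 in the SNF5 pausing index. DESeq2 called 0 in the OmoMYC pausing index, where it gave MVD no adjusted p, and the 6-sample fit called 1 in the index of SNF5 against OmoMYC. Leaving out 1 library gave 7 to 13 genes for SNF5 gene bodies, 0 to 9 for OmoMYC, 2 to 6 between them, 0 to 1 for promoter-proximal reads of either construct against EGFP and 0 between them, 0 to 2 and 0 to 1 for the pausing index of SNF5 and OmoMYC, and 0 to 1 between them. TMM factors, no count filter and promoter-proximal offsets kept every count of synthesis genes called within 1.5 times. Over all genes, promoter-proximal calls for SNF5 against EGFP went from 483 to 1041 with promoter-proximal offsets, 807 with no filter, 309 with DESeq2 and 0 without the block, and promoter-proximal offsets moved the all-gene median for OmoMYC from 0.12 to -0.03.

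Near 0, the sign of INSIG1 with SNF5 turned without EGFP replicate 1 (0.023) or SNF5 replicate 2 (0.035), in a range down to -0.29, that of SREBF2 without EGFP replicate 1 (0.027), SNF5 replicate 1 (0.023) or SNF5 replicate 2 (0.036), in a range down to -0.18, and that of INSIG1 with OmoMYC without the block (0.0052), with only 6 samples (0.00079) and without EGFP replicate 1 (0.10), EGFP replicate 2 (0.079), OmoMYC replicate 1 (0.026) or SNF5 replicate 3 (0.0015), in a range down to -0.20. SREBF2 with OmoMYC passed with DESeq2 (adjusted p = 0.014), with no filter (0.047), with 6 samples (0.021) and without EGFP replicate 3 (0.021) or SNF5 replicate 3 (0.0046). The cause was not tested.

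The mean number of genes with a MYC peak was lower by 12 with either construct, and by 5 to 19 without 1 library. For OmoMYC the mean of 0 followed from lists read as empty. A q-value of 0.00001 left 4 and 14 genes in the EGFP samples, and any annotated start 7 and 19. The ATAC difference for SNF5, 5.33 genes, was 4 to 6.5 without 1 library and turned to -0.33 with equal peak numbers. For OmoMYC, 0.33 genes became -2 with equal numbers, -1 without EGFP replicate 3 and -2.17 without OmoMYC replicate 2, in a range up to 2.33. Promoter-proximal totals were lower than gene body totals, which limits their precision, and peak lists without reads allow no test per gene.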
